A study of Mus musculus with 2 samples.

Results

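Unannotated genes lying away from protein-coding genes were examined in mouse brain. The deposited table of unannotated genes has 7379 entries, which are stretches of genome where reads were assembled into transcripts that the submitters' gene models did not hold. An entry was taken as a member when its position shared no base, on either strand, with any of the 13381 protein-coding genes listed in the gene table. This left 1499 of the 7379 entries (20.3%), while 4996 overlapped a listed gene on the same strand and 884 overlapped one on the opposite strand only. An entry of this kind can be a long noncoding RNA, a pseudogene, a coding gene absent from the gene list, or the end of a gene that is longer than its listed model.

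The study asked how loss of miR-7 alters brain tissue inflammation in mice. RNA was measured in 2 libraries of brain RNA from C57BL/6J mice, 1 with the title miR-7KD (mouse 3) and 1 with the title WT (mouse 7). Both mice had received lipopolysaccharide (LPS) at 2.5 mg/kg by intraperitoneal injection and brain tissue was taken after 12 h, as the study's methods give it. The age field gives 6 to 8 weeks for both and the methods give a later range. The genotype fields contradict the titles: the miR-7KD-titled library carries the genotype wild type and the WT-titled library carries miR-7 KD. Both libraries are therefore named by title, and no direction given here can be assigned to a genotype. The sources used here do not give how miR-7 was reduced in these mice. The description fields speak of 3 replicates a group, of which 1 library each was analysed here, so no comparison has a replicate check and no p-value is given. The mouse, the library and the condition cannot be told apart.

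Values are FPKM, the number of fragments per kilobase of transcript, scaled to the number of mapped fragments. A long noncoding RNA is transcribed and often spliced like a messenger RNA but is not translated, and many act in the nucleus or serve as the precursor from which microRNAs or small nucleolar RNAs are cut. A microRNA pairs with messenger RNAs chiefly through its seed, the bases near its 5′ end, and lowers their output. Brain expresses a particularly wide range of long noncoding RNAs, among them imprinted RNAs read from only the maternal or the paternal chromosome.

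Several members contain microRNA genes, and the mature sequences below (RefSeq, GRCm38.p6) are shown because the study concerns miR-7 and because the levels of these members recur in the results. They run 5′ to 3′ with the seed, bases 2 to 8, in capitals.
miR-7b-5p, from a hairpin inside a member on chromosome 17: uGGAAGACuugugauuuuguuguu
miR-7a-5p, from Mir7-1 and Mir7-2, outside the members: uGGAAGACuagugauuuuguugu
miR-9-5p, from Mir9-1, Mir9-2 and Mir9-3, each inside a different member: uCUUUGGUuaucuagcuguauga
miR-219a-5p, from Mir219a-2, inside a member on chromosome 2: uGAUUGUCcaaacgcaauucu
miR-101a-3p, from Mir101a, inside a member on chromosome 4: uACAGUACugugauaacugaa
let-7b-5p, from Mirlet7b, inside a member on chromosome 15: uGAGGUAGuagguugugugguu
miR-7a-5p and miR-7b-5p share the seed GGAAGAC and differ at 1 base over their shared length, A10U, counted from 1 at the 5′ end with the base of miR-7a-5p first. miR-7b-5p also has 24 bases against 23 in miR-7a-5p.

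The tissue label was checked on the listed genes. All 6 brain genes looked at (Snap25, Syt1, Mbp, Gfap, Camk2a and Slc17a7) were listed, at 34.2 to 221 FPKM in the miR-7KD-titled library and 48.6 to 221 FPKM in the WT-titled library. The extraction protocol names retinas, but none of 4 photoreceptor genes (Sag, Rcvrn, Pde6b and Prph2) was listed. Depth is unknown, since FPKM carries no read count and whole reads could not be recovered from low values.

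Most members were short, unspliced and low. The span of a member had a median of 1416 bases, with quartiles of 561.5 and 3440 bases and a range of 200 to 410886 bases. By comparison, unannotated genes that overlap a listed gene had a median span of 21534 bases. Of the 1499 members, 1211 had 1 exon and 285 had 2 or more, taking the largest exon number among the transcripts listed for each, and 3 had no listed transcript. Members of 1 exon had a median span of 1027 bases and 586 of them (48.4%) were under 1 kb. Members of 2 or more exons had a median span of 5960 bases, and their longest transcripts had a median of 2501 bases.

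The median level was 1.41 FPKM in the miR-7KD-titled library and 1.22 FPKM in the WT-titled library. The quartiles were 1.04 and 2.00 FPKM in the miR-7KD-titled library, against 0 and 1.80 FPKM in the WT-titled library. Unannotated genes overlapping a listed gene had medians of 5.12 and 5.12 FPKM in the same order of libraries. Every listed entry reaches 1 FPKM in at least 1 library, so members that are low in both are not seen, and only 121 members reached 5 FPKM and 30 reached 20 FPKM in either.

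The 2 libraries often did not share a member. In the miR-7KD-titled library 281 members (18.7%) were listed at 0, against 550 (36.7%) in the WT-titled library. Over all unannotated genes these shares were 5.73% and 11.4% in the same order. An exact 0 in a file without counts can be a failed estimate, so a single such member is given as listed at 0, with no ratio. In the counts, medians and correlations below these members are included unless stated. Among the 5880 unannotated genes that overlap a listed gene, 142 (2.41%) were listed at 0 in the miR-7KD-titled library and 292 (4.97%) in the WT-titled library. That difference goes in part with exon number. Of the 653 of these with 1 exon, 20.5% were at 0 in the miR-7KD-titled library and 43.2% in the WT-titled library, close to the shares of members of 1 exon given below. Of the 5109 with 2 or more exons, 0.157% and 0.196% were at 0 in the same order, under the shares of members of 2 or more exons. On each of 19 chromosomes more members were at 0 in the WT-titled library, and on the other 2 (8 and Y) the numbers were equal.

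With 0.1 added to each value, 642 members (42.8%) were 2-fold or more higher in the miR-7KD-titled library and 343 (22.9%) 2-fold or more lower. Over all unannotated genes the shares were 16.4% higher and 9.46% lower, and over those that overlap a listed gene they were 9.68% and 6.04%. Over listed protein-coding genes at 1 FPKM or more they were 6.01% and 5.58%. The median log2 ratio of the miR-7KD-titled library over the WT-titled library was 0.38 for members and 0.03 for all unannotated genes. Of the members past 2-fold, 831 were listed at 0 in 1 library. These are past 2-fold by construction, since each reaches 1 FPKM in the other library and 0.1 was added. The counts of members higher and lower thus mostly repeat the counts at 0. The 668 members above 0 in both libraries had a median log2 ratio of 0.03.

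Members of 1 exon were at 0 in a library more often than members of 2 or more exons. Even so, of the 668 members above 0 in both libraries 398 had 1 exon and 267 had 2 or more. Of members of 1 exon, 274 of 1211 (22.6%) were at 0 in the miR-7KD-titled library and 539 (44.5%) in the WT-titled library. Of members of 2 or more exons, 7 of 285 (2.46%) were at 0 in the miR-7KD-titled library and 11 (3.86%) in the WT-titled library. No member of 5 or more exons (46) was at 0 in either library. In members of 2 or more exons 48 (16.8%) were 2-fold or more higher and 33 (11.6%) 2-fold or more lower in the miR-7KD-titled library, and the median log2 ratio was -0.01. Of entries of 2 or more exons that overlap a listed gene, 4.89% were higher and 3.97% lower. In members of 1 exon 594 (49.1%) were higher and 309 (25.5%) lower, near the 47.9% and 22.5% of entries of 1 exon that overlap a listed gene.

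**Figure D1:**
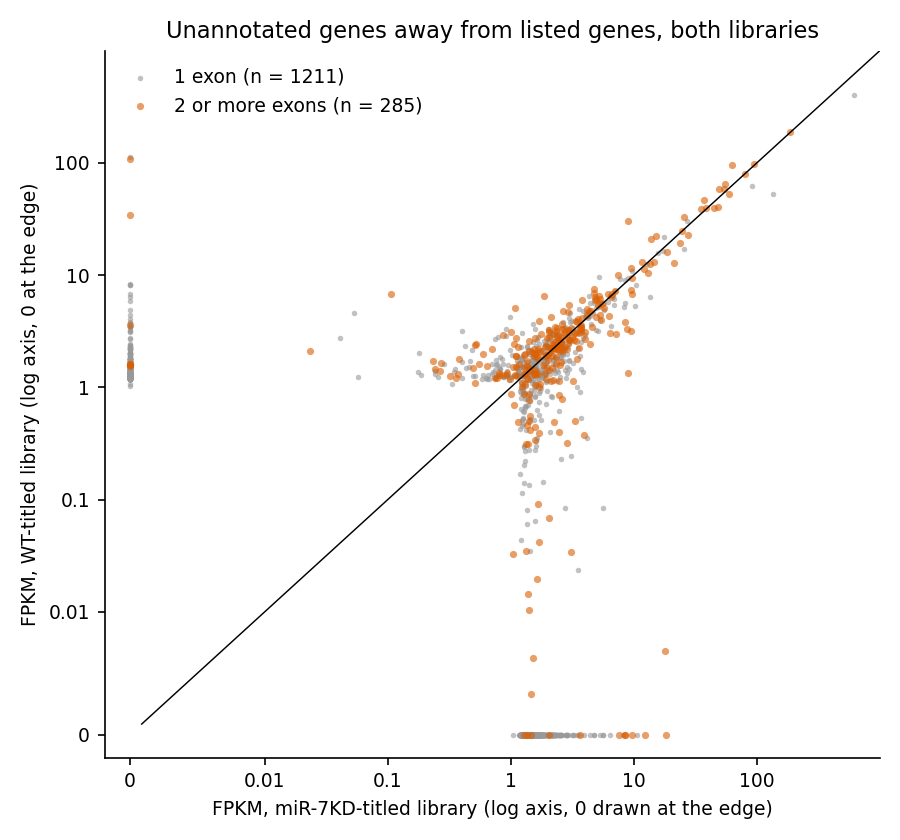
FPKM of each member in the miR-7KD-titled library (horizontal) and in the WT-titled library (vertical), on log axes with 0 drawn at the edge and the line of equal values; grey points are members of 1 exon (n = 1211) and orange points are members of 2 or more exons (n = 285). Most orange points lie along the line, while 813 grey points lie on an edge because 1 library lists them at 0.

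In members of 1 exon the share at 0 depended on the level as well. Among members of 1 exon whose higher value was 1 to 1.5 FPKM (593), 28.5% were at 0 in the miR-7KD-titled library and 53.0% in the WT-titled library. Among those at 2 to 5 FPKM (235), 14.04% were at 0 in the miR-7KD-titled library and 28.9% in the WT-titled library. At 5 to 20 FPKM (43) both shares were 13.95%. The excess of zeros in the WT-titled library in members of 1 exon was therefore seen at low levels and not from 5 to 20 FPKM, where 6 were at 0 in each library. In members of 1 exon at 0 in the WT-titled library, the other library listed a median of 1.42 FPKM. Members of 2 or more exons showed no such fall: from the lowest to the highest level class 6.12%, 8.89%, 2.48%, 12.8% and 8.70% were at 0 in either library. At 5 to 20 FPKM (47) these were 6 at 0 in the WT-titled library and 0 in the miR-7KD-titled library. The depth of both libraries is unknown, and its part in these zeros was not tested.

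**Figure D2:**
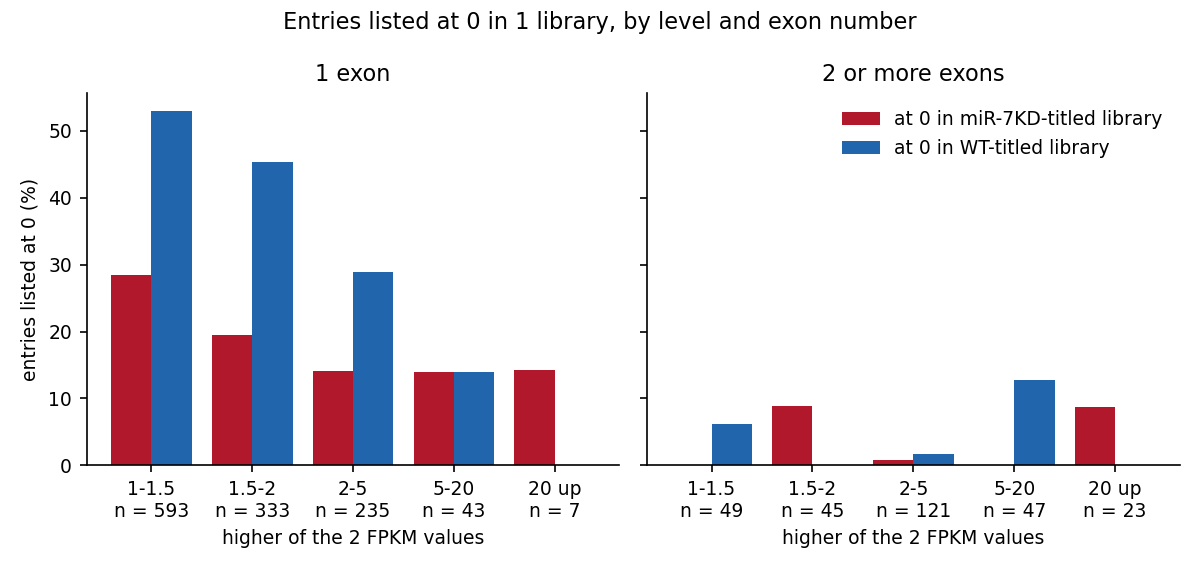
Percent of members listed at 0 in the miR-7KD-titled library (red) and in the WT-titled library (blue), by the higher of the 2 FPKM values, for members of 1 exon (left) and of 2 or more exons (right), with the number of members under each class. In members of 1 exon the blue bars go down from 53.0% to 13.95% between the first and the fourth class and the red bars from 28.5% to 13.95%. The bars of members of 2 or more exons show no such fall.

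Agreement of the libraries was low over all members and higher in spliced ones. Over the 1499 members Spearman's rho between the libraries was 0.12 and Pearson's r of log10(FPKM + 1) was 0.40. Over the 285 members of 2 or more exons rho was 0.58 and r was 0.70, and over the 1211 members of 1 exon they were -0.14 and 0.09. Over the 5880 unannotated genes that overlap a listed gene rho was 0.93 and r was 0.91. Over the 653 of these with 1 exon rho was 0.05 and r was 0.36, so low agreement of single-exon entries is not particular to members. Over the 5109 of these with 2 or more exons rho and r were both 0.93, above the 0.58 and 0.70 of members of 2 or more exons. These are descriptions across genes of 2 libraries, and genes are not replicates. Because an entry is listed only if 1 library reaches 1 FPKM, a low value in 1 library comes with a high value in the other, which lowers the correlation of weak entries. Without the members at 0 in a library rho was 0.61 over 668 members. Values within 1.5-fold of each other were found for 172 of 285 members of 2 or more exons (60.4%) and 229 of 1211 members of 1 exon (18.9%), against 65.1% of all unannotated genes.

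The highest members were a mixture of well-known RNAs, copies of other genes and unnamed stretches. The entry with the highest value, MSTRG.12418 (chr3:5860333-5860772, GRCm38, plus strand, 1 exon of 440 bases), had 617 FPKM in the miR-7KD-titled library and 402 FPKM in the WT-titled library. It lay 109037 bases from the nearest listed gene, overlapped no gene of GENCODE M21 or RefSeq, and alone held 13.8% of the summed FPKM of all members in the miR-7KD-titled library and 10.3% in the WT-titled library. Next came Meg3, a maternally expressed imprinted long noncoding RNA (chr12:109540984-109571739, 9 exons), with 187 FPKM in the miR-7KD-titled library and 188 FPKM in the WT-titled library. Of the 12 highest members, 4 were pseudogenes, 7 were within 1.5-fold between libraries and 3 were at least 2-fold different, 2 of them listed at 0 in 1 library.

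Short unspliced entries of high value were less even. MSTRG.20560 (chr8, 350 bases, 1 exon) had 136 FPKM in the miR-7KD-titled library and 52.4 FPKM in the WT-titled library, a log2 ratio of 1.38. MSTRG.6585 (chr14, 219 bases, 1 exon) had 90.8 FPKM in the miR-7KD-titled library and 61.8 FPKM in the WT-titled library. MSTRG.17153 (chr6, 314 bases, 1 exon) was listed at 0 in the miR-7KD-titled library and at 113 FPKM in the WT-titled library. Values of such short entries rest on few bases of transcript. MSTRG.14855 on chromosome 4, of 2 exons and 5660 bases and without an annotated gene on its strand, had 63.4 FPKM in the miR-7KD-titled library and 95.6 FPKM in the WT-titled library.

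Annotation of the same build placed 212 members (14.1%) in a long noncoding RNA gene on the same strand, 150 (10.01%) in a protein-coding gene, 81 (5.40%) in a pseudogene and 11 in loci marked TEC (to be experimentally checked). A further 139 (9.27%) lay only antisense to a gene and 900 (60.0%) touched no annotated gene. Of these 900, 283 overlapped a gene of RefSeq, whose strand was not available for the comparison. An overlap of 1 base with a gene, introns included, was enough to place a member. An exon on the same strand was touched by 128 of the 212 in long noncoding RNA genes, 84 of the 150 in protein-coding genes and 77 of the 81 in pseudogenes. The others lay between exons. Spliced members made up 95 of the 212 in long noncoding RNA genes (44.8%) and 52 of the 81 in pseudogenes (64.2%), against 72 of the 900 without an annotated gene (8.00%). Members in long noncoding RNA genes had median levels of 1.56 FPKM in the miR-7KD-titled library and 1.33 FPKM in the WT-titled library.

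Nuclear RNAs and those of X-chromosome inactivation were read from a list of 11, of which 8 had a member. None of these 8 was 2-fold or more higher in the miR-7KD-titled library and 2 were 2-fold or more lower, with a median log2 ratio of 0.10, against 42.8% higher, 22.9% lower and a median of 0.38 over all members. Malat1, an abundant RNA of nuclear speckles, had 59.6 FPKM in the miR-7KD-titled library and 53.1 FPKM in the WT-titled library. Miat, a nuclear RNA of neurons, had 45.2 FPKM in the miR-7KD-titled library and 39.9 FPKM in the WT-titled library. Xist, which coats the inactive X chromosome of female cells, had 25.6 FPKM in the miR-7KD-titled library and 33.2 FPKM in the WT-titled library. Its 1 unannotated transcript was listed at 0 in the miR-7KD-titled library and at 2.81 FPKM in the WT-titled library, so the value of an entry and that of its listed transcripts can differ widely. Firre, a repeat-rich nuclear RNA of the X chromosome, had 9.62 and 9.38 FPKM in the same order. The lower pair were single-exon entries inside Jpx, an activator of Xist, and Lncpint, both listed at 0 in the miR-7KD-titled library with 1.33 and 1.32 FPKM in the WT-titled library. Neat1 had no member: a known RNA whose assembled transcripts match its annotation need not appear in a table of unannotated genes, so a missing name does not show a missing RNA.

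Imprinted RNAs were represented by 4 of 11 listed genes and 12 members. Of these 12, 0 were 2-fold or more higher and 3 2-fold or more lower in the miR-7KD-titled library (median log2 ratio -0.01). Over all members 42.8% were higher and 22.9% lower, and over members of 2 or more exons 16.8% and 11.6%. Rian, a maternally expressed host of small nucleolar RNAs and microRNAs with 28 exons, had 13.1 FPKM in the miR-7KD-titled library and 10.5 FPKM in the WT-titled library. Mirg, the host of a microRNA cluster further along the same domain, had 1.14 FPKM in the miR-7KD-titled library and 2.29 FPKM in the WT-titled library, a log2 ratio of -0.95. Between Dlk1 and Dio3 on chromosome 12 the 3 members on the plus strand, Meg3, Rian and Mirg, summed to 201 FPKM in each library, of which Meg3 made up most. Summed unannotated transcripts gave 77.1 FPKM in the miR-7KD-titled library and 34.0 FPKM in the WT-titled library for Rian, and 0.025 and 2.45 FPKM in the same order for Mirg.

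Snhg14, the long paternal transcript that runs antisense to Ube3a in neurons, was broken into 9 members along chromosome 7. The highest of them had 38.7 FPKM in the miR-7KD-titled library and 39.7 FPKM in the WT-titled library, and the second had 23.7 and 19.3 FPKM in the same order. The 3 members of the list that were past 2-fold were all single-exon entries of Snhg14, listed at 0 in the miR-7KD-titled library with 1.26 to 2.35 FPKM in the WT-titled library. From Ube3a to Ndn, 24 members lay on the minus strand and summed to 102 FPKM in the miR-7KD-titled library and 107 FPKM in the WT-titled library. The sums hide unequal parts. Of the 24, 4 were at 0 in the miR-7KD-titled library and 4 at 0 in the WT-titled library. In the miR-7KD-titled library 5 were 2-fold or more higher and 7 2-fold or more lower, beside 42.8% and 22.9% over all members.

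**Figure D3:**
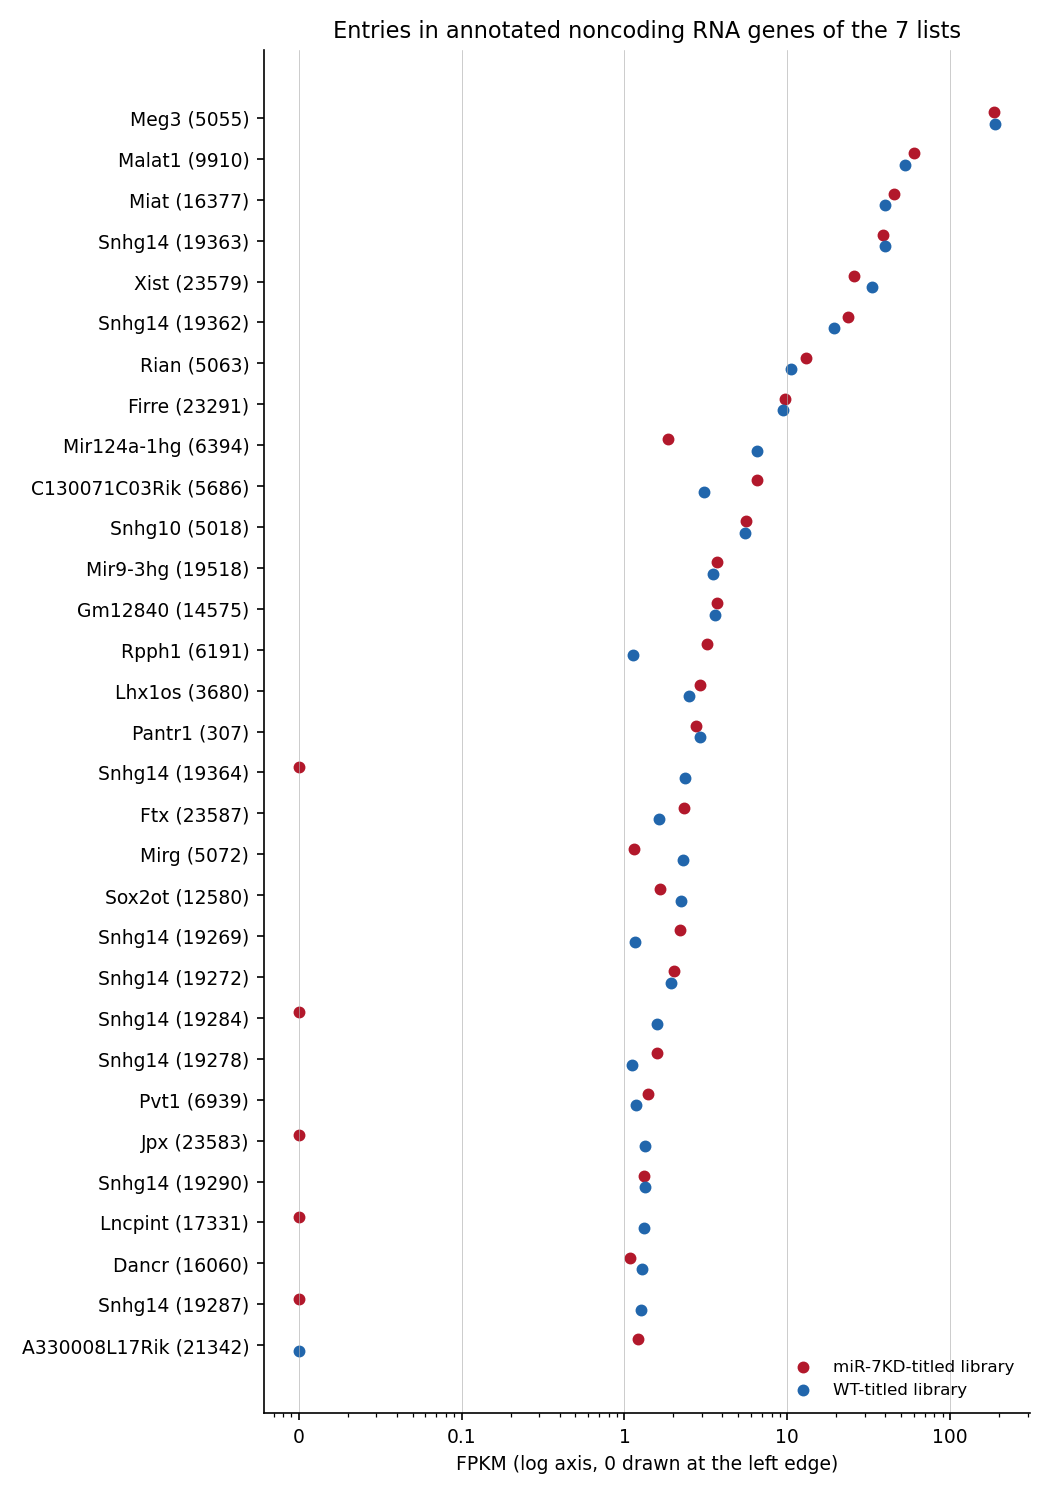
FPKM (log axis, 0 at the left edge) in the miR-7KD-titled library (red) and in the WT-titled library (blue) of the members inside annotated noncoding RNA genes of the 7 lists, named by gene with the number of the entry. From Meg3 down to Firre both points of a row lie close together, and the points at 0 all belong to entries with under 3 FPKM in the other library.

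Among brain long noncoding RNAs 8 of 20 listed genes had a member. Of these, 2 were 2-fold or more higher and 1 2-fold or more lower in the miR-7KD-titled library (median log2 ratio 0.04). The shares beside these were the same 42.8% and 22.9% over all members, and 16.8% and 11.6% over members of 2 or more exons. The entry in Mir124a-1hg, which holds the neuronal microRNA gene Mir124a-1, had 1.85 FPKM in the miR-7KD-titled library and 6.48 FPKM in the WT-titled library, a log2 ratio of -1.75. Only 33.9% of this entry lay in Mir124a-1hg, so its value is not that of the gene alone. Sox2ot, which spans the neural stem cell gene Sox2, had 1.65 and 2.22 FPKM in the same order. Pantr1, expressed in developing cortex, had 2.73 FPKM in the miR-7KD-titled library and 2.91 FPKM in the WT-titled library. Of the 7 miR-7 loci and RNAs known to bind miR-7, 5 had a gene of that name in GENCODE M21. For 0 of them was that gene the one of most same-strand overlap with a member. A member that held Mir7b and a member that overlapped Cdr1os of RefSeq are given below. Among the smaller lists, 2 of 20 small nucleolar RNA hosts had a member (Snhg10 and Dancr), as did 1 of 12 inflammation-linked RNAs (Gm12840) and 1 of 10 short structural RNAs. The last was Rpph1, the RNA of ribonuclease P, with 3.23 FPKM in the miR-7KD-titled library and 1.13 FPKM in the WT-titled library, a log2 ratio of 1.43 that was 0.99 with 1 added to each value.

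A microRNA gene with a Mir symbol in GENCODE M21 or RefSeq lay inside 19 members on the same strand, 41 such genes in all, and 5 further members held only a microRNA gene of provisional name. All 19 members were spliced and above 0 in both libraries, and their median log2 ratio was -0.01. Of the 19, 3 (15.8%) were 2-fold or more higher and 5 (26.3%) 2-fold or more lower in the miR-7KD-titled library, beside 16.8% higher and 11.6% lower over all spliced members and 16.4% and 9.46% over all unannotated genes. With the 5 further members, 5 of 24 were higher and 6 lower. These values are of the whole assembled entries, and whether a microRNA gene lay in an exon or between exons was not examined. Mature microRNAs were not measured in these libraries.

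The member holding Mir7b, 1 of the 3 mouse miR-7 genes, was MSTRG.8943 (chr17:56241737-56243098, plus strand, 2 exons, longest transcript 1021 bases). It had 0.023 FPKM in the miR-7KD-titled library and 2.10 FPKM in the WT-titled library, a log2 ratio of -4.16, or -1.60 with 1 added to each value. Most of it (78.5%) lay in AC026385.1, a long intergenic noncoding RNA gene, and the hairpin stood at its 3′ end (56242988 to 56243098). Fem1a, a gene for a substrate receptor of a ubiquitin ligase 13694 bases downstream, had 9.34 FPKM in the miR-7KD-titled library and was listed at 0 in the WT-titled library, a value that may be a failed estimate and gives no direction. A difference of at least 2-fold downward was found in 11.6% of members of 2 or more exons, and this one has no replicate check. Mir7-1 lay in an entry that overlaps Hnrnpk, its host, and is no member (32.9 FPKM in the miR-7KD-titled library and 30.1 FPKM in the WT-titled library). No entry overlapped Mir7-2.

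MSTRG.23347, chosen after its values were seen for its overlap with Cdr1, covered C230004F18Rik on the plus strand of the X chromosome (chrX:61116379-61292483, 8 exons). It also overlapped Cdr1os of RefSeq, whose strand was not available for the comparison. It had 1.71 FPKM in the miR-7KD-titled library and 3.88 FPKM in the WT-titled library, a log2 ratio of -1.14. Cdr1 lies within it on the opposite strand, and the strand that the entry occupies is known as the source of a circular RNA with many miR-7 sites. That circular RNA was not matched here and has no value. With the entry's unannotated transcripts summed, the values were 6.93 FPKM in the miR-7KD-titled library and 9.90 FPKM in the WT-titled library, under 2-fold apart.

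The 3 genes for miR-9, a microRNA of neural progenitors, lay in 3 members. C130071C03Rik, with Mir9-2, had 6.47 FPKM in the miR-7KD-titled library and 3.08 FPKM in the WT-titled library. Gm3764, with Mir9-1, had 4.21 and 4.44 FPKM in the same order. Mir9-3hg had 3.72 FPKM in the miR-7KD-titled library and 3.49 FPKM in the WT-titled library. Of these only C130071C03Rik was past 2-fold, by a log2 ratio of 1.05. With the unannotated transcripts of each entry summed, the order changed: the log2 ratio was 0.44 for C130071C03Rik, while Mir9-3hg had 0.13 FPKM in the miR-7KD-titled library and 3.37 FPKM in the WT-titled library, a log2 ratio of -3.95.

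Larger differences were seen in other hosts. The member with Mir219a-2, whose microRNA is known for its part in oligodendrocyte maturation, had 8.95 FPKM in the miR-7KD-titled library and 1.35 FPKM in the WT-titled library, a log2 ratio of 2.64. Only 6.61% of this member was the microRNA gene. It lay 4 bases downstream of Urm1, a listed gene on the opposite strand with 5.55 and 3.30 FPKM in the same order. E130102H24Rik, with Mir101a, had 1.64 FPKM in the miR-7KD-titled library and 0.020 FPKM in the WT-titled library. Tmem164, with Mir652, had 0.27 FPKM in the miR-7KD-titled library and 1.65 FPKM in the WT-titled library. Gm27000, with Mir1906-2, had 35.3 FPKM in the miR-7KD-titled library and 38.6 FPKM in the WT-titled library. Lncppara, with Mirlet7b and Mirlet7c-2, was nearly even at 2.41 FPKM in the miR-7KD-titled library and 2.70 FPKM in the WT-titled library.

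**Figure D4:**
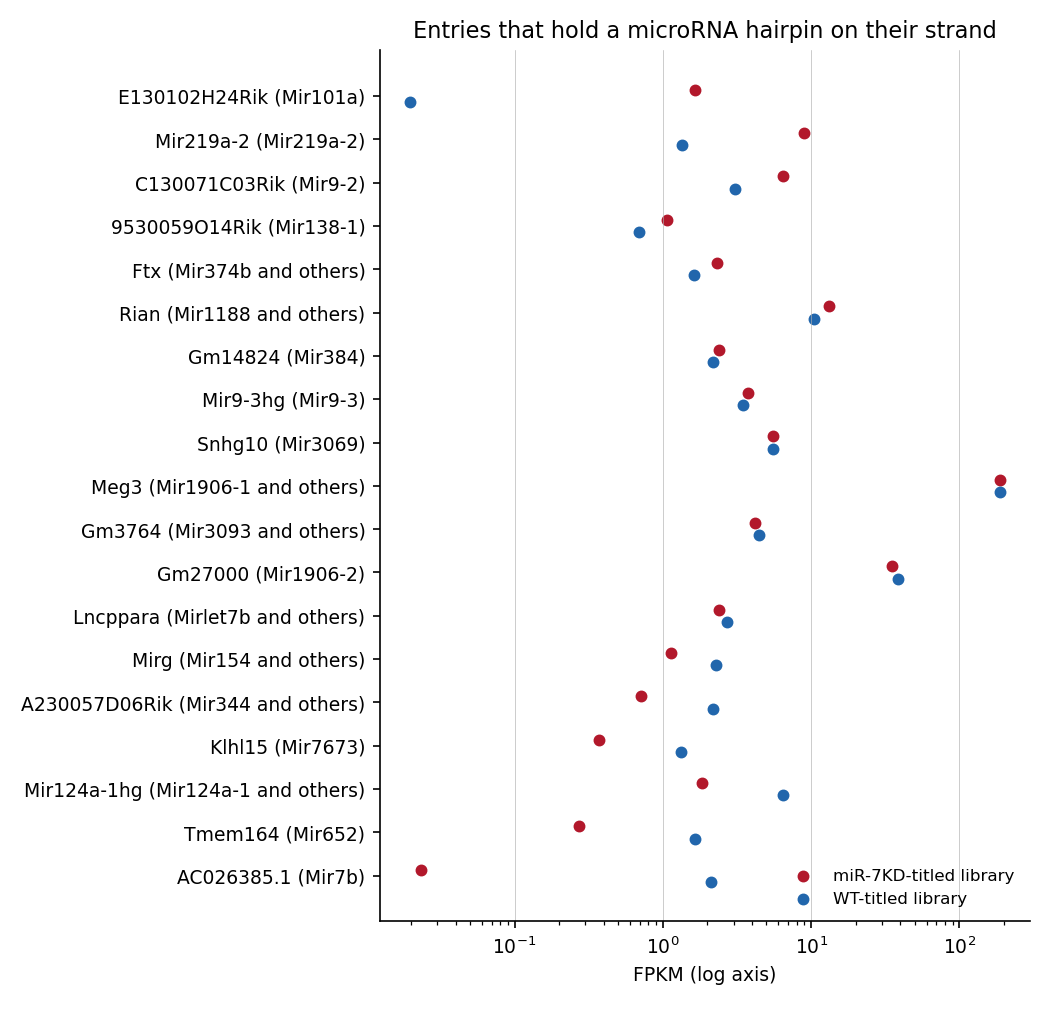
FPKM (log axis) in the miR-7KD-titled library (red) and in the WT-titled library (blue) of the 19 members that hold a microRNA gene with a Mir symbol, ordered from the highest to the lowest log2 ratio. The member with Mir7b is at the bottom with 0.023 FPKM in the miR-7KD-titled library and 2.10 FPKM in the WT-titled library, and the member with Mir101a is at the top.

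Members in annotated protein-coding genes made up another group, with 150 members in 123 genes, of which 84 members touched an exon on their strand. Of the 150 members, 42 lay in 41 genes that are listed, but with a locus that does not reach the member, and 31 of the 42 were downstream of their nearest listed gene on its own strand. Others were whole genes. Rtl8a, a gene derived from a retrotransposon, had 79.6 FPKM in each library, while its 1 unannotated transcript had 2.14 FPKM in the miR-7KD-titled library and 4.63 FPKM in the WT-titled library. Chosen after their values were seen, Kcnk9, a potassium channel of neurons, had 13.7 FPKM in the miR-7KD-titled library and 12.6 FPKM in the WT-titled library, and Adra2a, an adrenergic receptor, had 5.30 and 5.61 FPKM in the same order. Chrm1, a muscarinic acetylcholine receptor also chosen in this way, had 4.76 FPKM in the miR-7KD-titled library and 7.61 FPKM in the WT-titled library.

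Among the 121 members at 5 FPKM or more, 22 were 2-fold or more higher in the miR-7KD-titled library, 12 of them at 0 in the WT-titled library. Another 13 were 2-fold or more lower, 9 of them at 0 in the miR-7KD-titled library. Over all unannotated genes, which reach 1 FPKM in at least 1 library, 16.4% were higher and 9.46% lower. On the higher side was an entry with 40.9% of its span in Hist3h2ba, a histone gene. It had 18.2 FPKM in the miR-7KD-titled library and was listed at 0 in the WT-titled library. Its 1 unannotated transcript had 4.49 and 0 FPKM in the same order. Cd24a, a cell surface glycoprotein of neuroblasts and leukocytes, had 9.68 FPKM and 0 in the same order. Of another entry, 90.1% lay in 4930519F16Rik, annotated as a pseudogene of the X chromosome. This entry had 17.99 FPKM in the miR-7KD-titled library and 0.0045 FPKM in the WT-titled library. It also overlapped the RefSeq gene Nap1l2, and the parts of the 2 genes in its value were not separated. On the lower side Pcbp1, an RNA-binding protein gene without introns, was listed at 0 in the miR-7KD-titled library and at 34.4 FPKM in the WT-titled library. Gm15459, a pseudogene on chromosome 5, was listed at 0 in the miR-7KD-titled library and at 109 FPKM in the WT-titled library. Most of the largest differences thus rest on an exact 0, which the files do not allow to be told from a failed estimate.

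Pseudogene members were mostly processed copies (54 of 81), and reads of a copy and its parent may be exchanged, so their levels are uncertain. For 3 pairs chosen after their values were seen, Tpt1-ps3 had 48.0 FPKM in the miR-7KD-titled library and 40.6 FPKM in the WT-titled library, beside 146 and 137 FPKM for Tpt1, a translation-related protein. Gpx4-ps2 had 12.7 FPKM in the miR-7KD-titled library and 12.5 FPKM in the WT-titled library, beside 94.8 and 127 FPKM for Gpx4, a peroxidase of membrane lipids. Hsp25-ps1 had 5.24 FPKM in the miR-7KD-titled library and 9.58 FPKM in the WT-titled library, beside 16.003 and 31.0 FPKM for its parent Hspb1, a small heat shock protein.

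Although no member overlapped a listed gene, most lay close to one. The distance to the nearest listed gene had a median of 7744 bases with quartiles of 1884.5 and 53336 bases. Within 1 kb lay 260 members (17.3%), within 10 kb 801 (53.4%) and within 100 kb 1228 (81.9%), and 37 were beyond 1000 kb. Members of 1 exon were nearer, with a median of 5641 bases, than members of 2 or more exons, with a median of 22189 bases. Pseudogene members had a median distance of 48505 bases, and members without an annotated gene a median of 4935.5 bases.

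Close to genes the members had a preferred place. Of the 801 members within 10 kb, 403 (50.3%) lay downstream of the gene on its own strand and 230 (28.7%) lay upstream on the opposite strand. The other 2 places, upstream on the same strand and downstream on the opposite strand, held 84 members each. Of the 698 members beyond 10 kb the shares were 28.5% and 25.6% for the first pair of places, and 25.9% upstream on the same strand and 19.9% downstream on the opposite strand. Of the 403 downstream members 380 (94.3%) had 1 exon, 97 were at 0 in the miR-7KD-titled library and 192 at 0 in the WT-titled library. Across these 403, those at 0 included, Spearman's rho between the member's log2 ratio and that of its gene was -0.07.

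**Figure D5:**
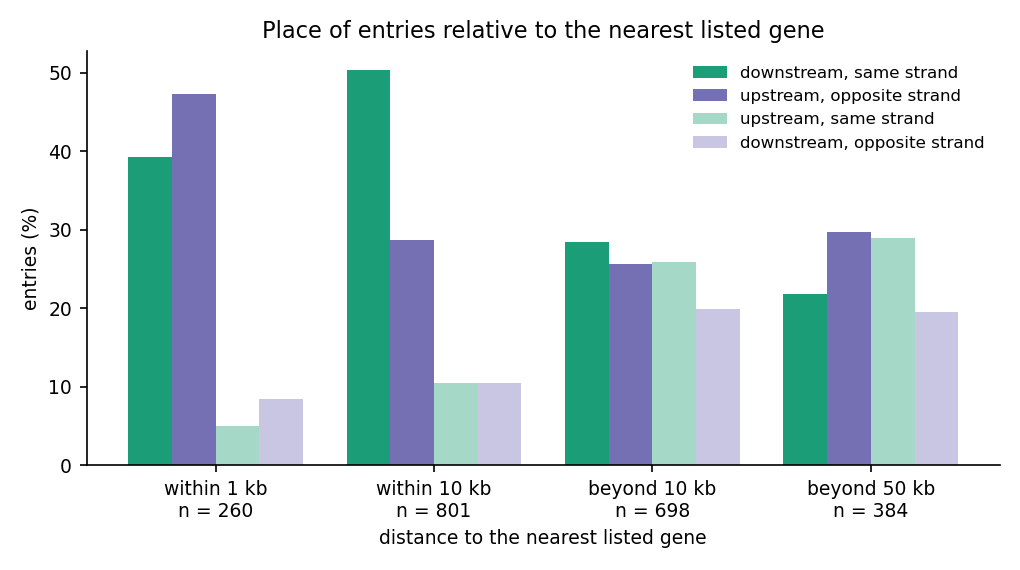
Percent of members by their place relative to the nearest listed gene, for members within 1 kb, within 10 kb, beyond 10 kb and beyond 50 kb, with the number of members under each class; the first class is part of the second and the fourth is part of the third. Within 10 kb the downstream same-strand bar stands at 50.3%, and beyond 50 kb the 4 bars lie between 19.5% and 29.7%.

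Within 1 kb the upstream, opposite-strand place was the commonest, with 123 of 260 members (47.3%). This is the place of divergent transcription, in which a promoter starts RNA in both directions. Of the 123, 30 had 2 or more exons, 32 lay in an annotated long noncoding RNA gene, 18 were at 0 in the miR-7KD-titled library and 39 at 0 in the WT-titled library. Gm15246, starting 8 bases from Hccs, a mitochondrial enzyme gene, had 2.47 FPKM in the miR-7KD-titled library and 2.11 FPKM in the WT-titled library. D330023K18Rik, 24 bases from Gpr107 and chosen after its values were seen, had 2.04 and 3.10 FPKM in the same order. Lhx1os, 113 bases from the transcription factor gene Lhx1, had 2.92 FPKM in the miR-7KD-titled library and 2.51 FPKM in the WT-titled library.

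RefSeq promoters, from 250 bases before to 50 bases after the start, were found for the neighbour of 86 of the 123. They held a median of 28.5 CG dinucleotides (the letters CG, which read the same on both strands) and 66.7% G+C, against 21 and 61.0% over the promoters of 10203 listed genes. At least 10 CG stood in 95.3% of the 86, in 81.6% of those of listed genes and in 43.9% of all 27025. This is a description of the windows, and no factor was examined.

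Members were found on each of the 21 chromosomes and not in the mitochondrial genome. Chromosome 7 held most (119), followed by 4 (108), 2 (106) and 11 (96). Set against listed genes, there were 8.61 members per 100 listed genes on the lowest autosome (5) and 18.2 on the highest (12), with 16.8 on the X chromosome. Y had 7 members and 1 listed gene. The 7 ranged up to 5.31 FPKM in the miR-7KD-titled library and 6.16 FPKM in the WT-titled library (MSTRG.23929), while none of the Y-linked genes Ddx3y, Eif2s3y, Kdm5d and Uty was listed and Xist was present in both libraries.

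Most members stood alone. When members on 1 strand were joined across gaps of up to 50 kb, 1163 remained single and 336 fell into 136 chains. The longest chain had 10 members over 125 kb of chromosome 16 on the minus strand, 337 kb from Robo2, an axon guidance receptor gene, and 9 of the 10 had 1 exon. In it 2 members were at 0 in the miR-7KD-titled library and 3 in the WT-titled library. A chain of 6 on chromosome 14 included Slitrk1, a synaptic adhesion gene that is not in the gene list, and Slitrk1 itself (chosen after its values were seen) had 2.36 FPKM in the miR-7KD-titled library and 3.40 FPKM in the WT-titled library.

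The longest members were spliced entries inside long annotated genes. The longest, of 410886 bases in Maml2, a coactivator of Notch signalling, had 1.35 FPKM in the miR-7KD-titled library and 0.46 FPKM in the WT-titled library, a log2 ratio of 1.37 that was 0.68 with 1 added. Pvt1, a noncoding neighbour of Myc, spanned 224435 bases and had 1.39 FPKM in the miR-7KD-titled library and 1.18 FPKM in the WT-titled library. The entry in Hs6st3, a heparan sulfate sulfotransferase gene, had 1.46 and 0.0019 FPKM in the same order. The entry in Chst11, a chondroitin sulfotransferase gene, had 3.37 FPKM in the miR-7KD-titled library and 3.94 FPKM in the WT-titled library. The member farthest from a listed gene was MSTRG.23926 on the Y chromosome, 47744825 bases away, with 0.98 FPKM in the miR-7KD-titled library and 4.26 FPKM in the WT-titled library.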

How the data were processed

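The authors deposited FPKM for genes and transcripts of 2 libraries. Bowtie 0.12.2 and mm8 are named in the submitters' processing notes, but all 9437 listed genes that share a versioned identifier with GENCODE M21 have its GRCm38 coordinates. The assembly program and whether the libraries keep strand are given nowhere in these sources, so reads of overlapping antisense genes may not be told apart. Positions were compared over closed intervals of at least 1 base. Exon numbers came from the unannotated transcript table. Ratios are log2((FPKM + 0.1)/(FPKM + 0.1)), miR-7KD title over WT title, at 1 FPKM or more in 1 library, which understates changes of low entries; no test was made. Low values of single-exon members fell on whole steps (tolerance 0.1 of a step, best step) in 39.1% (miR-7KD title) and 38.1% (WT title) of cases, against 20% by chance for a fixed step, so reads were not recovered.

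Members, lists and rules were chosen with earlier results of these data known. Entries named were the 12 highest, the 8 largest ratios each way at 5 FPKM or more and past 2-fold, the 5 longest, the 5 farthest and 5 nearest, those in the gene lists and those holding a microRNA gene of GENCODE M21 or RefSeq; not all are printed. Alternatives were other member rules, pseudocounts, shifts, minimum levels, a 3-fold threshold, exon number, transcript sums and correlation scales. Interval searches were tested on simulated data. Tables were handled with pandas 2.3.3 and numpy 2.4.6 in Python 3.11.15, correlations came from scipy 1.17.1, and plots from matplotlib 3.10.9.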

Additional observations from a re-analysis of the deposited data

How the results depend on the processing

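Pseudocounts of 0.01 or 1, shifts of the log2 ratios, no minimum level, a 3-fold threshold and summed transcripts kept the counts of members higher, lower or at 0 within 1.5 times and the median log2 ratio within 0.1. Taking no minimum level could change nothing, because every entry already reaches 1 FPKM. The 831 members at 0 in 1 library pass with each of these pseudocounts, shifts and the 3-fold threshold. With these settings the counts higher and lower could therefore move only through the other members. Counting only same-strand overlap gave 2383 members with a median log2 ratio of 0.24, rho of 0.25 and median span of 1798 bases. Requiring no listed gene within 5 kb left 853 members (698 at 10 kb), with 343 higher, 182 lower, 131 at 0 in the miR-7KD-titled library and 283 at 0 in the WT-titled library, rho 0.22, r 0.51 and median span 1264 bases.

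At 2 FPKM or more 119 were higher, 71 lower, 43 at 0 in the miR-7KD-titled library and 82 at 0 in the WT-titled library, and the median log2 ratio was 0.045. At 5 FPKM or more the numbers were 22, 13, 9 and 12, and the median was -0.00091. Without entries at 0, the counts were 92 higher and 62 lower, the median 0.031, rho 0.61 and r 0.83. In members of 2 or more exons 48 were higher, 33 lower, 7 at 0 in the miR-7KD-titled library and 11 at 0 in the WT-titled library, the median was -0.013, rho 0.58 and r 0.70. On log2(FPKM + 0.1) r over all members was -0.037. With 50% of the entry inside the gene, 53 members were in pseudogenes. These alternatives test fewer or other entries; further causes were not tested.

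Of 40 named entries past 2-fold, 6 were under it in some alternative (A230057D06Rik, C130071C03Rik, C230004F18Rik, Klhl15, Maml2 and Rpph1) and 0 changed direction. Of 42 named entries under 2-fold, 7 were past it with transcripts summed: log2 ratios were 1.499 for Pantr1, 1.18 for Rian, -4.35 for Mirg, -4.86 for Xist, -3.95 for Mir9-3hg and -1.08 for Rtl8a, and the seventh was 9330111N05Rik. With that sum the sign changed for 7 entries, in Dancr, Gm12840, Gm27000, Malat1, Mir9-3hg, Pantr1 and Snhg14. With 1 library a title, leaving out a replicate was not possible. No paired analysis was possible because each title has 1 library.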
